A study of Glycine max with 24 samples.

Results

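Leaf transcripts of soybean (Glycine max, cultivar Williams-82) were compared between L-V, the trifoliate leaf at the onset of senescence, and L-I, a leaf of the same node that had opened but was not fully expanded. The transcripts were chosen as those with a value above the lowest value of the leaf table in at least 3 of the 6 libraries of these stages, which held for 54821 of 73320 transcripts and 39874 of 54175 genes. The study profiled leaves at 5 stages and cotyledons at 3 stages by RNA-seq, with 3 replicates a stage from separate plants, to follow gene expression from expansion to senescence. Both stages came from untreated plants of this cultivar, kept in growth chambers under one light and dark cycle and sampled in the afternoon. L-V leaves were taken 7 weeks after the V3 growth stage by the labels of the libraries (the study's methods give an interval about a week longer), and L-I leaves at V3. Stage and plant age moved together, and all plants of a stage were of one age, so leaf age and plant age cannot be told apart. Of the chosen transcripts, 49787 of 37123 genes reached 10 reads when the 3 replicates of a leaf stage were summed, in 1 or more of the 5 stages, and were tested. The other 5034 had too few reads. At the limit of the rule, the 6160 transcripts found in exactly 3 of the 6 libraries had a median of 11 reads over the 6, and the 4138 found in 2 libraries, which were left out, had a median of 4 reads.

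A leaf opens as a sink that imports carbon and nitrogen, builds cell walls, a cuticle and chloroplasts while it expands, and then exports photosynthate. In senescence the chloroplasts are dismantled, chlorophyll and proteins are broken down, and the freed nitrogen, sulfur and metals are moved to developing seeds before the leaf is shed. Transcription factors of the NAC and WRKY families are known regulators of this programme in Arabidopsis, and cytokinin delays it while ethylene and abscisic acid promote it.

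The 6 libraries held 3618502 to 5507841 reads at L-V, against 1852184 to 4980727 at L-I, all of them reads that the authors could assign to a single transcript. The shallowest was L-I replicate 1. The methods of the study name 1 lane for the leaf libraries without saying whether all stages shared it, and no lane is given in the labels. Levels are normalized counts, reads divided by a size factor of each library, so a level is relative to the rest of the library. In whole leaves, fewer cells of a type and less RNA per cell cannot be told apart. By distance over log2(normalized count + 1), libraries lay 206 to 296 apart within L-V and 452 to 598 between the stages. L-I replicate 1 lay 273 and 314 from the other L-I libraries, which lay 203 apart. L-V replicate 1 stood farther from each L-I library than the other 2 L-V libraries did. It held the highest L-V value of 55.5% of the transcripts that rose. It also held the only lowest value of 56.0% of those that fell and had a single lowest library. Values without a library are given where they move by over 1.5 times. For fold values taken from reads or set as bounds, only libraries of the higher stage were left out in turn. L-I replicate 1 stood farther from each L-V library than the other 2 L-I libraries did. It held the only lowest L-I value of 60.1% of the transcripts that rose and had a single lowest library, and the highest L-I value of 50.2% of those that fell. Green tissue markers were present at both stages. The 6 transcripts of the Rubisco small chain summed to 1788 to 7740.2 normalized counts at L-V, against 21151 to 25469 at L-I. No gene in the tables used, most of which list changed genes, was annotated as glycinin, conglycinin or leghemoglobin, the markers of seed and nodule, and the 3 transcripts of floral MADS-box genes summed to 31.5 to 89.4 at L-V, against 5.68 to 21.7 at L-I. The list for woody tissue, 12 transcripts of laccases and cellulose synthases, had 3 rises, all of a cellulose synthase-like gene, and 8 falls. Its summed level was 972 to 3068 at L-V, against 480.2 to 803 at L-I, and 7 of its members had no read at L-V.

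Senescing leaves differed widely from opening leaves. A transcript was called where limma gave a p below 0.05 after Benjamini-Hochberg (BH) adjustment and the log2 fold change was over 1.5 in either direction, and the standard error (SE) of a change is that of limma. Of all 50940 transcripts tested, 31.1% were called, 11.9% as higher and 19.2% as lower at L-V. Of the 49787 chosen, 5984 transcripts of 4932 genes rose and 9562 of 8451 genes fell, and 3 genes had models in both groups. The median log2 fold change was -0.0054 among the chosen and -0.0040 among all tested. Falls outnumbered rises also among large changes, with 2065 rises over 3 on the log2 scale and 4502 falls below -3, and 492 rises over 5 against 1319 falls below -5. No L-I read was found for 821 of the transcripts that rose, and no L-V read for 2100 of those that fell. In 14860 of the 15546 called transcripts the L-V libraries did not overlap the L-I libraries. For the 821 and 2100 with no read at a stage, the rule of choice required reads in all 3 libraries of the other stage. Their lack of overlap followed from that rule and is no further evidence. Such separation held in all for 20.1% (L-V above) and 25.8% (L-V below) of the transcripts tested. Together the transcripts that rose took 40.6, 30.6 and 27.5% of the normalized counts of the L-V libraries, against 2.40, 4.06 and 3.06% of those of L-I. Those that fell took 4.02, 7.07 and 8.67% at L-V, against 51.5, 45.3 and 49.3% at L-I. These shares were chosen by the call and are given as a description. Abundant transcripts were called more often: 57.1% of the 590 with a mean of 1000 normalized counts or more, against 29.1% of those with a mean under 10.

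**Figure D1:**
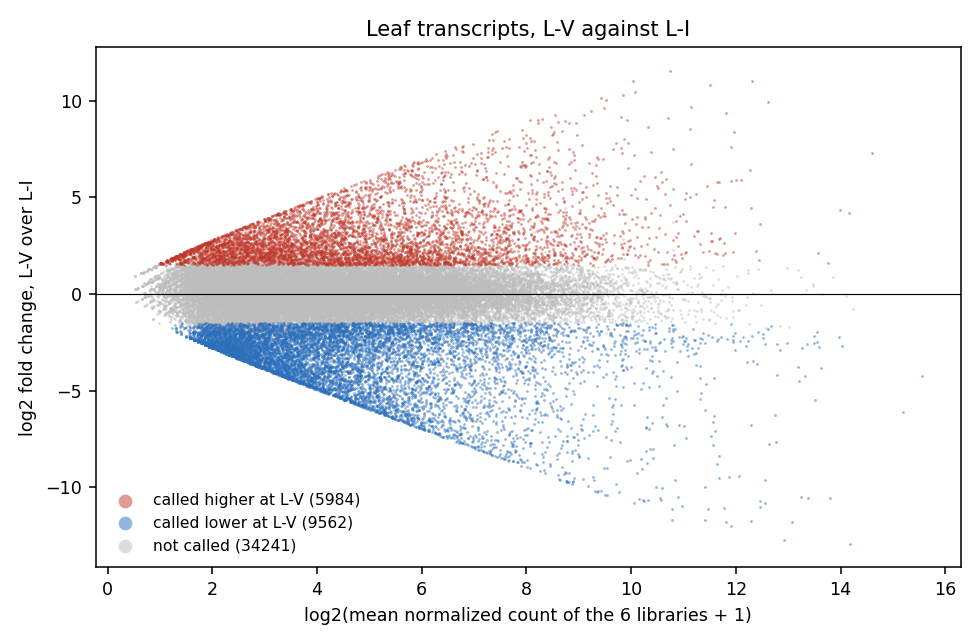
Each point is a chosen and tested transcript, by log2 of its mean normalized count over the 6 libraries plus 1 (x) and its log2 fold change of L-V over L-I (y). Red points (5984) were called higher at L-V and blue points (9562) lower, and the blue cloud reaches further from 0.

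Many of the changes were well advanced before L-V. By the intermediate stages, whose means the contrast did not use, 44.7% of the rises and 54.1% of the falls had passed the midpoint of their L-I to L-V change on the log2 scale at L-II. A further 25.0% of the rises and 25.2% of the falls reached it at L-III, 24.1% and 15.8% at L-IV, and 6.23% and 4.97% at L-V alone. The stages L-II to L-V were unevenly spaced, at 2, 4, 6 and 7 weeks after V3 by the labels (the study's methods give longer intervals). These shares are therefore not rates of change. The midpoint itself was set from the L-I and L-V means on which the transcripts were called. The gene lists described here come from the annotation of the study. Those called study-chosen were drawn from genes that changed in these leaf libraries, so their direction is not independent evidence, and the counts are given as a description. This holds as well for lists read from annotation text, such as WRKY or lipoxygenase, since annotation was taken from the tables of the study, most of which list genes that changed. The lists of nutrient transporters, NAC genes and senescence-associated homologs were not chosen on change. Annotation covered 22.6% of the called transcripts. Transcripts named for the size of their change or for their level were also required not to overlap between the stages. For these, the lack of overlap followed from the choice and is no further evidence.

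**Figure D2:**
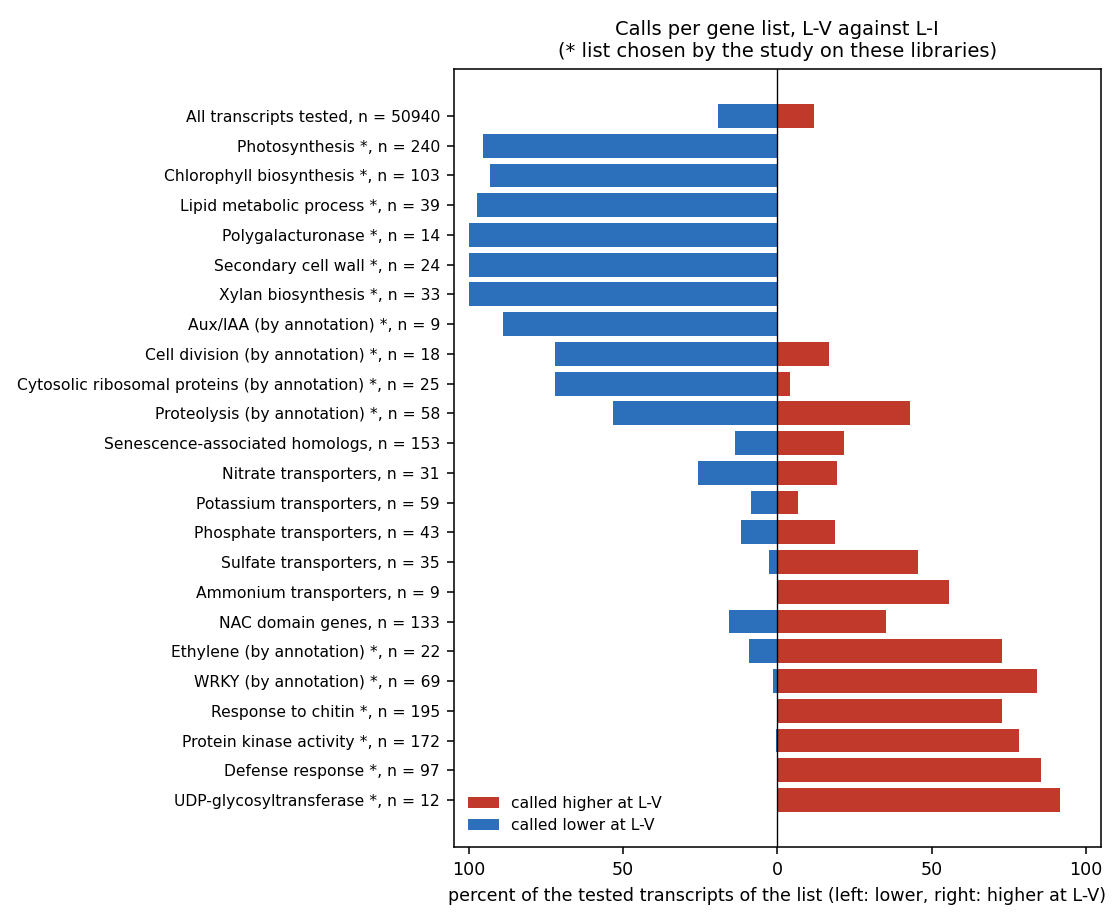
Bars give the percent of the tested transcripts of each list that were called higher (right, red) and lower (left, blue) at L-V than at L-I, with the number tested beside the name. Across all 50940 transcripts 11.9% were higher and 19.2% lower, and the photosynthesis list had 229 of 240 lower. The list labelled cytosolic ribosomal proteins was chosen by name and may include organelle proteins.

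The photosynthetic apparatus fell. Of 240 transcripts on the study-chosen photosynthesis list, 229 fell and 0 rose, and the median log2 change was -2.57 against -0.0040 over all transcripts tested. Together with the light-harvesting transcripts they took 0.909, 1.98 and 2.40% of the normalized counts at L-V, against 9.54, 8.35 and 10.6% at L-I. Photosystem I subunit F (Glyma05g00620.1), which docks plastocyanin, was among the most abundant transcripts of opening leaves, with 2371, 5804 and 7693 normalized counts at L-V, against 98338, 75054 and 98736 at L-I. Its log2 fold change was -4.25 (SE 0.65, BH-adjusted p = 8.49e-05, limma). Subunit O of the same complex (Glyma11g18640.1) had 222, 557 and 931 normalized counts at L-V, against 25509, 15167 and 27349.6 at L-I, a log2 fold change of -5.49 (SE 0.71, BH-adjusted p = 1.82e-05, limma). For both subunits every L-V library lay below every L-I library, and L-V replicate 1 was the lowest of the 6.

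Light-harvesting proteins, which bind chlorophyll around both photosystems, fell in 47 of 48 transcripts (a study-chosen list, median -2.90), to very different extents. The 2 transcripts named here by the size of their fall were of subunit B1 of light-harvesting complex II. Glyma16g28070.1 had 0.891, 7.20 and 3.66 normalized counts at L-V, against 3987, 1810.0 and 5152 at L-I, and Glyma16g27995.1 had 5.35, 16.4 and 4.39 normalized counts at L-V, against 8508, 3389 and 7848 at L-I. Their values of the log2 fold change were -9.65 (SE 0.89, BH-adjusted p = 6.46e-07, limma) and -9.50 (SE 0.97, BH-adjusted p = 1.7e-06, limma), and the stages did not overlap. Chlorophyll A/B binding protein 1 (Glyma05g25810.1) kept a higher level, with 2766, 4714 and 5916 normalized counts at L-V, against 33300.2, 16218 and 37582 at L-I, a log2 fold change of -2.68 (SE 0.60, BH-adjusted p = 0.00206, limma). These genes have close copies, and only reads unique to a transcript were counted. The 6 transcripts of the Rubisco small chain, the enzyme that fixes carbon dioxide, all fell, with values between -2.92 and -1.77. Without L-V replicate 1, 3 of them, with values of -1.53, -1.63 and -1.47, lost their call. The most abundant at L-I, Glyma13g07610.1, had 387, 1033 and 1936 normalized counts at L-V, against 7331, 6739 and 6758 at L-I, a log2 fold change of -2.92 (SE 0.76, BH-adjusted p = 0.00642, limma), which was -2.29 without L-V replicate 1.

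On the study-chosen list for chlorophyll biosynthesis 96 transcripts fell, 7 were not called and 0 rose (median -2.53). The members with the largest falls are annotated as 3-ketoacyl-CoA synthase 6, which in Arabidopsis elongates the fatty acids of cuticular wax and is not a chlorophyll enzyme. Glyma20g24930.1 had no read in any L-V library, against 2415, 723 and 976 normalized counts at L-I, and was at least 517-fold lower (BH-adjusted p = 1.06e-09, limma), or 320.4-fold without L-I replicate 1. Its copy Glyma08g30140.1 had no read in any L-V library, against 395, 118 and 149.9 normalized counts at L-I, and was at least 83.4-fold lower (BH-adjusted p = 4.42e-07, limma), or 50.6-fold without L-I replicate 1. Bounds are set against 3 reads a library, averaged over the libraries of the stage, and, like the counting intervals, cover counting error only. Without L-I replicate 1, the shallowest library, every bound set against L-I would be 1.599 times higher. Of the 5 genes annotated to chlorophyll breakdown, 4 fell and 1, pheophytinase, rose in its 3 models. This list was read from the study-chosen annotation. It may leave out genes of the pathway, other staygreen genes among them, and does not show how each step changed. Pheophytinase removes the phytol tail in the breakdown pathway. Its model Glyma11g16070.3 had 991, 521 and 474 normalized counts at L-V, against 11.4, 27.2 and 16.77 at L-I, a log2 fold change of 5.09 (SE 0.48, BH-adjusted p = 7.65e-07, limma), and no L-V library overlapped L-I. Chlorophyllase 1 (Glyma07g10840.1), long taken for a breakdown enzyme, had 0, 2.06 and 14.6 normalized counts at L-V, against 202, 240.4 and 467 at L-I, a log2 fold change of -6.29 (SE 1.06, BH-adjusted p = 0.000208, limma), which was -5.36 without L-V replicate 1 and -7.34 without L-V replicate 3. A staygreen protein (Glyma04g42260.1), of the family that takes the magnesium from chlorophyll, had 0, 0 and 1.46 normalized counts at L-V, against 68.2, 99.3 and 138 at L-I, and was 193-fold lower by its reads (95% counting interval 52.9 to 1602, BH-adjusted p = 4.78e-06, limma).

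Genes of the expanding epidermis and its cuticle fell early. The study-chosen list for lipid metabolic process fell in 38 of 39 transcripts, and the median log2 change was -5.52, or -4.29 with transcripts at 0 set to their bound. Of its members, 26 had no read at L-V. Many are lipases of the GDSL type, a family that includes enzymes of cutin assembly. Glyma17g37900.1 had no read in any L-V library, against 781, 2075 and 1504 normalized counts at L-I, and was at least 548-fold lower (BH-adjusted p = 4.81e-07, limma). The lipases did not all fall: among 30 transcripts with that annotation, 27 fell and 3 rose. Glyma14g23820.2, one of those that rose, had 10.7, 16.4 and 17.6 normalized counts at L-V, against 2.84, 4.18 and 0 at L-I. Lipid transfer protein 1 (Glyma01g32750.1) was among the 10 most abundant falling transcripts at L-I, with 346, 1121 and 2841 normalized counts at L-V, against 51270.1, 86488 and 81949 at L-I, a log2 fold change of -6.11 (SE 0.63, BH-adjusted p = 1.85e-06, limma), which was -5.32 without L-V replicate 1 and -6.84 without L-V replicate 3. A protein of the lipid-transfer superfamily, Glyma14g14220.1, had 0.891, 4.11 and 0 normalized counts at L-V, against 22332, 8534 and 15719 at L-I, a log2 fold change of -12.72 (SE 0.99, BH-adjusted p = 1.23e-07, limma), which was -13.36 without L-V replicate 2. In each of these falls the highest L-V library was below the lowest L-I library.

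Genes that build and loosen the cell wall fell. All 14 polygalacturonase transcripts fell (median -4.66, or -4.47 with transcripts at 0 set to their bound), as did 10 of 11 for wall loosening, all 24 for the secondary wall (median -4.04, or -3.18 with transcripts at 0 set to their bound), all 22 for cellulose and all 33 for xylan biosynthesis, each a study-chosen list. Polygalacturonase 2 (Glyma08g39700.1), which cuts pectin, had no read in any L-V library, against 421, 112 and 417 normalized counts at L-I, and was at least 119-fold lower (BH-adjusted p = 1.21e-07, limma). Expansin A1 (Glyma02g12140.1), which loosens walls for growth, had 2.67, 9.25 and 8.79 normalized counts at L-V, against 759, 1243 and 726 at L-I, a log2 fold change of -6.94 (SE 0.74, BH-adjusted p = 2.53e-06, limma). Both genes had their 3 L-V libraries below the range of L-I. Cellulose synthase 6 (Glyma02g08920.1), of the primary wall in Arabidopsis, had 11.6, 8.22 and 5.86 normalized counts at L-V, against 389, 436 and 472 at L-I, a log2 fold change of -5.54 (SE 0.31, BH-adjusted p = 7.37e-09, limma). Galacturonosyltransferase 12 (Glyma12g34280.1), needed for xylan in Arabidopsis, had 0, 1.03 and 0 normalized counts at L-V, against 170.5, 59.6 and 126 at L-I, and was 365-fold lower by its reads (95% counting interval 64.9 to 14479.5, BH-adjusted p = 1.34e-07, limma). Laccase 17 (Glyma08g47380.1), a lignin enzyme in Arabidopsis, had no read in any L-V library, against 34.1, 62.7 and 71.0 normalized counts at L-I, and was at least 21.1-fold lower (BH-adjusted p = 5.69e-07, limma). Proline-rich protein 4 (Glyma11g10460.2), a structural wall protein, had one of the 10 largest falls of all chosen transcripts, with no read in any L-V library, against 2199, 4247 and 4061 normalized counts at L-I, and was at least 1321-fold lower (BH-adjusted p = 4.98e-09, limma). None of these 6 wall genes had an L-V library within the L-I range.

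Transcripts listed for cell division mostly fell, and those of growth hormones moved in both directions. Of 18 transcripts annotated to tubulin, kinesin, cyclin and the like, 13 fell and 3 rose. The summed level of the 18 overlapped between the stages, with 2075 to 5147 normalized counts at L-V, against 3061 to 4245 at L-I. All 8 of the study-chosen list for microtubule-based processes fell. Tubulin alpha-2 chain (Glyma11g04750.1) had no read in any L-V library, against 134, 70.0 and 107 normalized counts at L-I, and was at least 39.0-fold lower (BH-adjusted p = 1.73e-07, limma). Beta-6 tubulin (Glyma05g37860.1) went the other way, with 169, 319.7 and 404 normalized counts at L-V, against 11.4, 24.0 and 13.8 at L-I, a log2 fold change of 4.08 (SE 0.37, BH-adjusted p = 5.61e-07, limma). The stages did not overlap for either tubulin. Of 9 Aux/IAA transcripts, repressors that auxin induces and degrades, 8 fell (median -5.57). Glyma02g00260.2 had 0, 2.06 and 0 normalized counts at L-V, against 148, 222 and 125 at L-I, and was 291-fold lower by its reads (95% counting interval 80.1 to 2414, BH-adjusted p = 1.94e-06, limma). The SAUR genes, another auxin-responsive family, split, with 4 rises and 2 falls among 8. Glyma07g05760.1 had 823, 1007 and 591 normalized counts at L-V, against 62.5, 90.9 and 49.3 at L-I, a log2 fold change of 3.57 (SE 0.33, BH-adjusted p = 5.65e-07, limma). Gibberellin 20-oxidase 2 (Glyma09g27490.1), of gibberellin synthesis, had no read in any L-V library, against 125, 55.4 and 203 normalized counts at L-I, and was at least 48.2-fold lower (BH-adjusted p = 2.47e-06, limma). A gibberellin 2-oxidase (Glyma15g39750.1), of the family that inactivates the hormone, rose, with 71.3, 113 and 184 normalized counts at L-V, against 5.68, 2.09 and 1.97 at L-I, a log2 fold change of 4.87 (SE 0.41, BH-adjusted p = 2.3e-07, limma). Another, Glyma15g10070.1, was not called, at 11.6, 5.14 and 30.02 normalized counts at L-V, against 2.84, 9.41 and 7.89 at L-I. Of the 5 gibberellin oxidase transcripts, 1 rose, 2 fell and 2 were not called, with a median of 0.18. The shares were 20% and 40%, against 11.9% and 19.2% of all transcripts tested. Their summed level overlapped, with 86.4 to 233.6 normalized counts at L-V, against 82.6 to 231.8 at L-I. Cytokinin response factor 2 (Glyma11g02140.1) had no read in any L-V library, against 151, 137 and 197 normalized counts at L-I, and was at least 61.0-fold lower (BH-adjusted p = 2.29e-08, limma). In all called genes of these hormone lists named here, L-V and L-I libraries did not overlap.

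Of 4 transcripts annotated to flavonoid and phenylpropanoid synthesis 1 fell (25%, against 19.2% of all transcripts tested), with a median of -0.18. It was a member of the chalcone and stilbene synthase family (Glyma19g27930.1), at the entry to flavonoid synthesis, which had 139, 37.0 and 53.4 normalized counts at L-V, against 18999, 11327 and 11066 at L-I, a log2 fold change of -7.66 (SE 0.46, BH-adjusted p = 1.22e-08, limma). The other 3 were not called, among them phenylalanine ammonia lyase 1 (Glyma10g06600.1), with 188, 368 and 728 normalized counts at L-V, against 537, 581 and 732 at L-I. The chalcone synthase family member was far higher in every L-I library, while the lyase overlapped between the stages. On the study-chosen list for lignin biosynthesis 22 of 23 transcripts fell (median -3.62, or -2.73 with transcripts at 0 set to their bound). O-methyltransferase 1 (Glyma06g45043.1), an enzyme of lignin monomers, had 266, 201 and 82.7 normalized counts at L-V, against 8169, 12108 and 20456 at L-I, a log2 fold change of -6.26 (SE 0.57, BH-adjusted p = 5.69e-07, limma). An S-adenosylmethionine synthetase (Glyma15g21890.1), which makes the methyl donor and was among the 10 most abundant falling transcripts at L-I, had 1897, 3197 and 4436 normalized counts at L-V, against 11733, 27920.5 and 24610.1 at L-I, a log2 fold change of -2.74 (SE 0.45, BH-adjusted p = 0.00015, limma). Of 25 transcripts annotated as ribosomal proteins, from a study-chosen annotation that may include organelle proteins, 18 fell and 1 rose (median -2.45). The riser, ribosomal protein L5 B (Glyma18g41730.1), had 57.9, 154 and 72.5 normalized counts at L-V, against no read in any L-I library, and was at least 19.5-fold higher (BH-adjusted p = 2.03e-07, limma).

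Transcripts annotated to proteolysis moved in both directions. Of 58 transcripts annotated to proteases or ubiquitin-protein ligases, 25 rose and 31 fell, from a study-chosen annotation. The summed level of the 58 was higher at L-V, with 24963 to 31265 normalized counts, against 5780 to 8421 at L-I. A cysteine proteinase (Glyma15g19580.1) was among the 10 most abundant rising transcripts at L-V, with 9689, 8845 and 10791 normalized counts at L-V, against 68.2, 184 and 111 at L-I, a log2 fold change of 6.43 (SE 0.36, BH-adjusted p = 7.39e-09, limma). Another, Glyma04g36470.1, had 92.6, 228 and 326 normalized counts at L-V, against no read in any L-I library, and was at least 44.2-fold higher (BH-adjusted p = 7.75e-08, limma). The 3 L-V libraries of the first were close to each other and all stood above L-I. Serine carboxypeptidase-like 49 (Glyma15g16790.1) had 269, 393 and 506 normalized counts at L-V, against 2.84, 4.18 and 0 at L-I, a log2 fold change of 7.12 (SE 0.49, BH-adjusted p = 4.12e-08, limma), which was 6.40 without L-I replicate 3. Subtilisin-like proteases were among the falls. Glyma14g05250.1 had 0, 5.14 and 2.20 normalized counts at L-V, against 1889.6, 813 and 1768 at L-I, a log2 fold change of -9.02 (SE 0.88, BH-adjusted p = 1.03e-06, limma), which was -8.30 without L-V replicate 1 and -9.61 without L-V replicate 2. Glyma14g06990.2, a subtilase, had no read in any L-V library, against 807, 164 and 506 normalized counts at L-I, and was at least 186-fold lower (BH-adjusted p = 1.22e-08, limma). Both subtilases were below the L-I range in every L-V library.

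Enzymes and carriers of nitrogen included rises and falls. Asparagine synthase 1 (Glyma02g39320.2), which makes the amide in which legumes carry nitrogen, had 199.6, 50.4 and 72.5 normalized counts at L-V, against 0, 0 and 0.986 at L-I, and was 249.6-fold higher by its reads (95% counting interval 44.5 to 9886, BH-adjusted p = 1.66e-07, limma), or 147-fold without L-V replicate 1. Glutamine synthetase 2 (Glyma13g28180.6), the plastid form, had 29.4, 66.8 and 133 normalized counts at L-V, against 381, 458 and 389 at L-I, a log2 fold change of -2.65 (SE 0.62, BH-adjusted p = 0.00299, limma). L-V lay above L-I throughout for the synthase and below it for the synthetase. All 13 transcripts of the study-chosen list for basic amino acid transport rose. Amino acid transporter 1 (Glyma09g21070.2) had 227, 289.9 and 461 normalized counts at L-V, against 0, 0 and 0.986 at L-I, and was 783-fold higher by its reads (95% counting interval 140.3 to 30956, BH-adjusted p = 2.55e-08, limma). The ammonium transporters, a list not chosen on change, had 5 rises and 0 falls among 9 tested, with a median of 2.58. These were shares of 55.6% and 0%, against 11.9% and 19.2% of all transcripts tested. Of 18 genes on the list, 8 had enough reads to be tested. Ammonium transporter 1;1 (Glyma10g26690.1) had 4415, 2243 and 2439 normalized counts at L-V, against 65.4, 32.4 and 67.1 at L-I, a log2 fold change of 5.76 (SE 0.41, BH-adjusted p = 6.04e-08, limma), and its paralog Glyma20g21030.1 had 636, 753 and 1044 normalized counts at L-V, against 62.5, 44.9 and 34.5 at L-I, a log2 fold change of 4.08 (SE 0.28, BH-adjusted p = 4.13e-08, limma). Every L-V library of both paralogs exceeded every L-I library. The nitrate transporters had 6 rises and 8 falls among 31 (19.4% and 25.8%, against 11.9% and 19.2% of all transcripts tested, median -0.30), shares not far from those of all transcripts. Nitrate transporter 1.7 (Glyma18g16490.1), which in Arabidopsis loads nitrate from old leaves into the phloem, had 8526, 2718 and 2153 normalized counts at L-V, against 17.05, 10.5 and 3.95 at L-I, a log2 fold change of 8.51 (SE 0.78, BH-adjusted p = 5.72e-07, limma), which was 7.91 without L-V replicate 1. A nitrate transporter 1:2 that fell (Glyma05g01380.1) was low at both stages, with 0, 1.03 and 0.732 normalized counts at L-V, against 22.7, 9.41 and 6.91 at L-I.

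Genes of sulfur transport and assimilation mostly rose where they changed. The sulfate transporters, a list not chosen on change, had 16 rises and 1 fall among 35 (median 1.47, or 1.45 with transcripts at 0 set to their bound), against 11.9% and 19.2% of all transcripts tested. Sulfate transporter 2;1 (Glyma08g14700.1) had 2193, 899 and 523 normalized counts at L-V, against 0, 2.09 and 0 at L-I, and was 1359-fold higher by its reads (95% counting interval 376 to 11229.5, BH-adjusted p = 1.5e-06, limma), or 789-fold without L-V replicate 1, while Glyma14g34170.1 with the same annotation had 23.2, 92.5 and 52.0 normalized counts at L-V, against 335, 234 and 312 at L-I, a log2 fold change of -2.56 (SE 0.58, BH-adjusted p = 0.00243, limma). The first was high at L-V alone and the second was highest at L-I. On the study-chosen list for sulfate assimilation 8 of 10 rose. ATP sulfurylase 1 (Glyma10g38760.1), which activates sulfate, had 1604, 1413 and 909 normalized counts at L-V, against 93.8, 206 and 148 at L-I, a log2 fold change of 3.16 (SE 0.35, BH-adjusted p = 3.47e-06, limma). The phosphate transporters had 8 rises and 5 falls among 43 (18.6% and 11.6%, median 0.28). The potassium transporters had 4 rises and 5 falls among 59 (6.78% and 8.47%, median 0.07). Of all transcripts tested, 11.9% rose and 19.2% fell, so the potassium shares were lower in both directions. Phosphate transporter 1;9 (Glyma07g34870.1) had 192, 178 and 195 normalized counts at L-V, against 5.68, 5.23 and 0 at L-I, a log2 fold change of 5.77 (SE 0.65, BH-adjusted p = 4.51e-06, limma), which was 4.87 without L-I replicate 3, and phosphate transporter 4;2 (Glyma07g17440.1), of plastids in Arabidopsis, had 3.56, 0 and 0 normalized counts at L-V, against 301, 303 and 255 at L-I, a log2 fold change of -7.43 (SE 0.60, BH-adjusted p = 1.57e-07, limma), which was -8.16 without L-V replicate 1. An outward rectifying potassium channel (Glyma17g01080.1) had 41.9, 68.9 and 45.4 normalized counts at L-V, against 594, 426 and 548 at L-I, a log2 fold change of -3.32 (SE 0.56, BH-adjusted p = 0.000215, limma). L-V stood above L-I for the first phosphate transporter and below it for the second and for the channel. Metallothioneins, small proteins that bind metals, were among the most abundant transcripts that rose. Metallothionein 2A (Glyma17g34870.1) had 6877, 9185 and 6589 normalized counts at L-V, against 88.1, 212 and 115 at L-I, a log2 fold change of 5.84 (SE 0.40, BH-adjusted p = 3.72e-08, limma), and metallothionein 3 (Glyma12g24840.1) had 43648, 28932 and 19861 normalized counts at L-V, against 585, 3643 and 1353 at L-I, a log2 fold change of 4.36 (SE 0.58, BH-adjusted p = 2.23e-05, limma), which was 3.72 without L-I replicate 1 and 5.04 without L-I replicate 2. Of all 12 transcripts annotated to metal binding and transport, 6 rose and 3 fell. Both metallothioneins were highest in the L-V libraries, though metallothionein 3 varied widely within L-I.

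Of 4 beta-amylase transcripts, 2 rose and 1 fell (50% and 25%, against 11.9% and 19.2% of all transcripts tested). The list is short and study-chosen, so its counts do not speak for the family. Chloroplast beta-amylase (Glyma01g41190.1), an enzyme of starch breakdown, had 334, 194 and 384 normalized counts at L-V, against 0, 0 and 2.96 at L-I, and was 244-fold higher by its reads (95% counting interval 83.1 to 1183, BH-adjusted p = 5.64e-07, limma), while beta-amylase 5 (Glyma06g45700.1), which in Arabidopsis lies outside the plastid, had 4.45, 8.22 and 7.32 normalized counts at L-V, against 406, 1729 and 1556 at L-I, a log2 fold change of -7.11 (SE 0.64, BH-adjusted p = 5.23e-07, limma), which was -7.78 without L-I replicate 1. Of 3 sugar transporter transcripts, a list with the same limits, 1 rose (33.3%, against 11.9% of all transcripts tested). Sugar transporter 14 (Glyma08g03940.1) had 142, 136 and 247 normalized counts at L-V, against 5.68, 5.23 and 6.91 at L-I, a log2 fold change of 4.61 (SE 0.39, BH-adjusted p = 2.5e-07, limma). The stages did not overlap for any of the 3 genes. The other beta-amylase that rose, beta-amylase 1 (Glyma09g29840.1), had 1084, 644 and 972 normalized counts at L-V, against 165, 441 and 409 at L-I, and its log2 fold change of 1.501 (SE 0.37, BH-adjusted p = 0.00407, limma) fell under the threshold without L-V replicate 1 (1.35), L-V replicate 3 (1.43) or L-I replicate 1 (1.05).

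**Figure D3:**
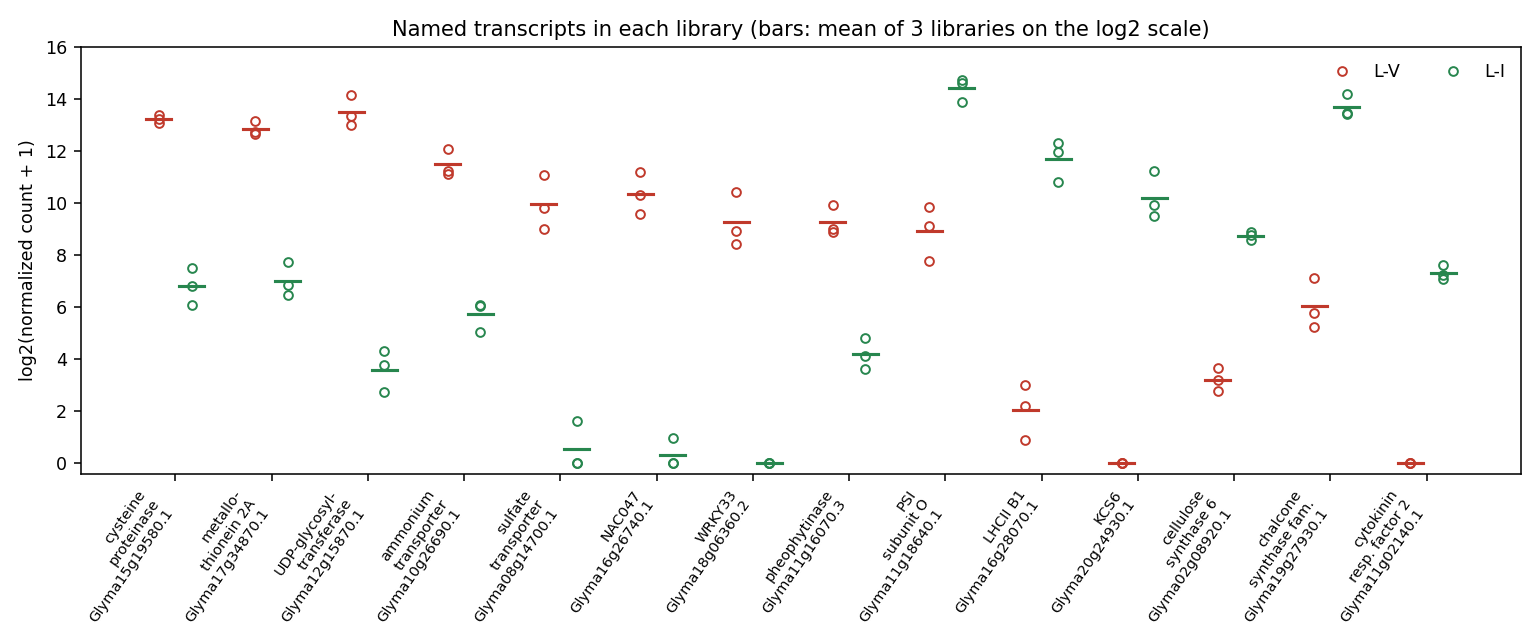
Circles give log2(normalized count + 1) of 14 named transcripts in each of the 3 L-V libraries (red, left) and the 3 L-I libraries (green, right), and bars their mean. From the cysteine proteinase to pheophytinase the L-V libraries lie above, and from photosystem I subunit O to cytokinin response factor 2 they lie below, with no overlap. Lack of overlap was a condition of naming by size or level.

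Transcription factor families rose and fell in different numbers. The NAC list, not chosen on change, had 47 rises and 21 falls among 133 transcripts of 116 genes (35.3% and 15.8%, against 11.9% and 19.2% of all transcripts tested), and the median log2 change was 0.78, or 0.77 with transcripts at 0 set to their bound. NAC domain containing protein 47 (Glyma16g26740.1) was among the 10 largest rises of all, with 2383, 1268 and 767 normalized counts at L-V, against 0, 0 and 0.986 at L-I, and was 3326-fold higher by its reads (95% counting interval 597 to 131405, BH-adjusted p = 7.37e-09, limma). Glyma07g05660.1, a NAC gene that fell, had no read in any L-V library, against 22.7, 25.1 and 25.6 normalized counts at L-I, and was at least 9.24-fold lower (BH-adjusted p = 4.01e-06, limma). Neither overlapped between the stages. Of the 172 NAC genes on the list, 116 were tested. When transcripts with a mean under 10 normalized counts were left out, the list had 40 rises and 5 falls. WRKY transcripts, a study-chosen annotation, rose in 58 of 69 and fell in 1 (median 3.11, or 2.37 with transcripts at 0 set to their bound). WRKY DNA-binding protein 33 (Glyma18g06360.2), a defense regulator in Arabidopsis, had 1385, 493 and 348 normalized counts at L-V, against no read in any L-I library, and was at least 152-fold higher (BH-adjusted p = 1.17e-07, limma), or 86.4-fold without L-V replicate 1. The member that fell, WRKY 49 (Glyma07g16040.2), was low, with no read in any L-V library, against 8.52, 8.36 and 17.8 normalized counts at L-I. MYB transcripts rose in 24 and fell in 8 of 37 (64.9% and 21.6%), and bHLH transcripts rose in 13 and fell in 27 of 47 (27.7% and 57.4%). Zinc finger transcripts rose in 16 and fell in 41 of 70 (22.9% and 58.6%). Of all transcripts tested, 11.9% rose and 19.2% fell. These lists are study-chosen and drawn mostly from changed genes, so their counts do not speak for the families. Myb domain protein 116 (Glyma05g35050.1) had 170.2, 134 and 152 normalized counts at L-V, against no read in any L-I library, and was at least 31.1-fold higher (BH-adjusted p = 7.48e-06, limma). A myb-like factor, Glyma01g00600.1, had 0.891, 0 and 0 normalized counts at L-V, against 585, 405 and 431 at L-I, and was 1536-fold lower by its reads (95% counting interval 275 to 60746, BH-adjusted p = 2.61e-09, limma). GRAS factors, a list with the same limit, rose in 7 and fell in 3 of 12 (58.3% and 25%). Glyma03g10320.1 had 89.1, 102.8 and 109 normalized counts at L-V, against 22.7, 15.7 and 11.8 at L-I, a log2 fold change of 2.55 (SE 0.27, BH-adjusted p = 2.12e-06, limma). Among 153 transcripts homologous to Arabidopsis senescence-associated genes, 33 rose, 21 fell and 99 were not called. The rises (21.6%) were above and the falls (13.7%) below the 11.9% and 19.2% of all transcripts tested, and most members were not called. Phospholipase A 2A (Glyma14g08910.1), which releases fatty acids from membrane lipids, had 136, 67.8 and 73.9 normalized counts at L-V, against no read in any L-I library, and was at least 19.02-fold higher (BH-adjusted p = 6.22e-06, limma).

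Ethylene genes, a study-chosen annotation, rose in 16 and fell in 2 of 22 transcripts (median 2.52). The ethylene-forming enzyme (Glyma02g43560.5), which completes ethylene synthesis, had 217, 308 and 212 normalized counts at L-V, against 25.6, 14.6 and 7.89 at L-I, a log2 fold change of 3.98 (SE 0.45, BH-adjusted p = 4.54e-06, limma). ACC synthase 1 (Glyma05g37410.2), one step before, had 0, 0 and 3.66 normalized counts at L-V, against 11.4, 24.0 and 11.8 at L-I, a log2 fold change of -3.25 (SE 0.74, BH-adjusted p = 0.00243, limma), which was -3.99 without L-V replicate 3. The ethylene-forming enzyme was above L-I and the synthase below it in all 3 L-V libraries. Of 4 abscisic acid transcripts 2 rose and 2 fell. Abscisic acid 8'-hydroxylase 1 (Glyma13g33780.1), which inactivates the hormone, had 304, 411 and 529 normalized counts at L-V, against 17.05, 19.9 and 12.8 at L-I, a log2 fold change of 4.55 (SE 0.50, BH-adjusted p = 3.62e-06, limma). Abscisic aldehyde oxidase 3 (Glyma02g43993.1), which makes it, had 9.80, 38.0 and 58.6 normalized counts at L-V, against 2.84, 9.41 and 7.89 at L-I, a log2 fold change of 2.05 (SE 0.54, BH-adjusted p = 0.0064, limma), which was 2.77 without L-V replicate 1. Both were higher at L-V, the oxidase with its lowest L-V library barely above L-I, and the hydroxylase had its highest stage mean, 1862 normalized counts, at L-II. Zeaxanthin epoxidase (Glyma01g39313.1), early in the synthesis of the hormone, had 0, 2.06 and 0 normalized counts at L-V, against 2.84, 25.1 and 16.77 at L-I, a log2 fold change of -3.06 that was -2.51 and not called without L-I replicate 2 and -3.89 without L-I replicate 1. Abscisic acid responsive element-binding factor 1 (Glyma02g14880.3), a transcription factor, had 189, 171 and 122 normalized counts at L-V, against 341, 540.3 and 565 at L-I, a log2 fold change of -1.57 that was under the threshold without L-V replicate 3 (-1.39), L-I replicate 2 (-1.47) or L-I replicate 3 (-1.44). Lipoxygenases and allene oxide enzymes include, but are not limited to, those that start jasmonate synthesis. They fell in 20 and rose in 5 of 25 transcripts (median -4.20, or -3.18 with transcripts at 0 set to their bound). Glyma09g09520.1 had 0.891, 0 and 0 normalized counts at L-V, against 247, 144 and 189 at L-I, and was 621-fold lower by its reads (95% counting interval 111 to 24604, BH-adjusted p = 1.11e-05, limma). Lipoxygenase 3 (Glyma07g04480.1) rose, with 417, 205 and 443 normalized counts at L-V, against 28.4, 69.0 and 58.2 at L-I, a log2 fold change of 2.76 (SE 0.36, BH-adjusted p = 1.86e-05, limma). The stages did not overlap for either lipoxygenase.

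Defense and signalling genes rose as groups, all of them study-chosen. On the defense response list 83 of 97 transcripts rose and 0 fell (median 3.60, or 2.42 with transcripts at 0 set to their bound), on the list for response to chitin, a fungal wall polymer, 142 of 195 rose, and on that for protein kinase activity 135 of 172. Syntaxin of plants 121 (Glyma02g35210.1), a membrane fusion protein that takes part in fungal resistance in Arabidopsis, had 73.1, 66.8 and 96.6 normalized counts at L-V, against no read in any L-I library, and was at least 16.2-fold higher (BH-adjusted p = 8.76e-07, limma). A leucine-rich repeat kinase (Glyma08g21321.1) had 65.0, 162 and 130.3 normalized counts at L-V, against no read in any L-I library, and was at least 24.5-fold higher (BH-adjusted p = 1.92e-06, limma). Both genes had reads in every L-V library and none at L-I. The genes annotated as pathogenesis-related split, with 7 rises and 10 falls among 18. A basic chitinase (Glyma16g22680.1) had 81.1, 99.7 and 48.3 normalized counts at L-V, against no read in any L-I library, and was at least 15.7-fold higher (BH-adjusted p = 3.69e-05, limma). A CAP-family secreted protein (Glyma13g01250.1) had no read in any L-V library, against 1358, 358 and 1111 normalized counts at L-I, and was at least 356-fold lower (BH-adjusted p = 5.47e-08, limma). These 2 genes moved in opposite directions, each without overlap. UDP-glycosyltransferases, which add sugars to small molecules, rose in 11 of 12 (median 5.78, or 4.64 with transcripts at 0 set to their bound). Glyma12g15870.1, among both the 10 largest rises and the 10 most abundant, had 18596, 10624 and 8239 normalized counts at L-V, against 5.68, 18.8 and 12.8 at L-I, a log2 fold change of 9.91 (SE 0.51, BH-adjusted p = 3.9e-09, limma). A cytochrome P450 of family 82C (Glyma19g01831.1) had 1401, 1732 and 3289 normalized counts at L-V, against 0, 2.09 and 0 at L-I, and was 2600.2-fold higher by its reads (95% counting interval 719.6 to 21474, BH-adjusted p = 7.21e-09, limma). For both, the lowest L-V library was far above the highest L-I library. Heat shock and chaperone transcripts rose in 14 and fell in 9 of 28, and those for cell redox homeostasis fell in 27 of 32 (median -2.58, or -2.52 with transcripts at 0 set to their bound).

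Some of the receptor-like genes that rose stood side by side. Chromosome 16, read from the gene identifier, had 325 rises among 1905 chosen transcripts (17.1%), while the other chromosomes had 10.2 to 13.4%. In the block with the largest share, which starts at the identifier number 30000 and ends at 32499, 46 of 142 transcripts rose (32.4%). That block and the one before it held 3 of the longest runs of neighbouring chosen genes that rose together: 8 genes from Glyma16g28370 to Glyma16g28520, 7 of them annotated as receptor-like proteins, 8 genes from Glyma16g28661 to Glyma16g28770, 4 of them annotated as leucine-rich repeat disease resistance genes, and 12 genes from Glyma16g30570 to Glyma16g30875, with that annotation for 2. The called transcripts of the first run summed to 430.3 to 767 normalized counts at L-V, against 11.4 to 56.4 at L-I, of the second to 45.4 to 278 normalized counts at L-V, against 0 to 4.18 at L-I, and of the third to 90.9 to 153 normalized counts at L-V, against 5.68 to 24.0 at L-I. Receptor-like protein 53 (Glyma16g28500.2), had 49.9, 115 and 180.1 normalized counts at L-V, against 0, 4.18 and 1.97 at L-I. Among the called genes of these 3 runs, 25 of 28 transcripts had no overlap between the stages. The same held for 14860 of all 15546 called transcripts, so it is no trait of these runs. On chromosome 20 a run of 10 genes from Glyma20g27620 to Glyma20g27761, annotated where they had a name as cysteine-rich receptor-like kinases, summed to 2002 to 2361 normalized counts at L-V, against 119 to 220.5 at L-I. Receptor-like kinase 10 of this run (Glyma20g27720.1) had 545, 425 and 373 normalized counts at L-V, against 36.9, 53.3 and 52.3 at L-I, with L-V above L-I in every library. On chromosome 17, 8 genes from Glyma17g32691 to Glyma17g32846, nearly all annotated as protein kinases, summed to 891 to 1191 normalized counts at L-V, against 4.93 to 18.8 at L-I. Such genes also fell together. On chromosome 7, 8 genes from Glyma07g06830 to Glyma07g06943, 3 of them annotated as disease resistance genes, summed to 74.8 to 120.3 normalized counts at L-V, against 638 to 804 at L-I. Runs and genes here were chosen after their values were seen and carry no test as groups. Neighbours in such clusters are often near copies, so the split of reads between them is uncertain. In all, 56 runs of at least 4 neighbouring genes rose and 151 fell. Of the 37123 genes chosen and tested, 4932 rose and 8451 fell, so longer or more numerous falling runs are not a sign of closer grouping. Whether runs outnumbered what these shares give was not tested. The longest falling runs were 12 genes from Glyma02g14521 to Glyma02g14800 and 10 from Glyma06g45043 to Glyma06g45150.

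Many of the largest changes were in transcripts with no annotation in the tables used here. Glyma03g19260.1 reached 113092, 30129.8 and 6085 normalized counts at L-V, against 145, 253 and 153 at L-I, a log2 fold change of 7.26 (SE 0.71, BH-adjusted p = 1.13e-06, limma), which was 6.24 without L-V replicate 1 and 8.35 without L-V replicate 3. Glyma03g38570.1, the largest rise by fitted value, had 6238, 2063 and 2013 normalized counts at L-V, against no read in any L-I library, and was at least 706-fold higher (BH-adjusted p = 1.39e-09, limma), or 418-fold without L-V replicate 1, and Glyma11g09880.1 had 1609, 2682 and 2008 normalized counts at L-V, against no read in any L-I library, and was at least 431-fold higher (BH-adjusted p = 2.89e-10, limma). The first was strongest in L-V replicate 1, and the third was similar in all L-V libraries. Among falls, Glyma15g38091.1 had 1.78, 1.03 and 0 normalized counts at L-V, against 5194, 8654 and 9157 at L-I, and was 9633-fold lower by its reads (95% counting interval 3296 to 46714, BH-adjusted p = 2.18e-08, limma), and Glyma14g09420.3 had 64.1, 9.25 and 8.79 normalized counts at L-V, against 31291, 19574 and 34853 at L-I, a log2 fold change of -10.54 (SE 0.60, BH-adjusted p = 8.85e-09, limma), which was -11.44 without L-V replicate 1. Glyma15g06270.1, annotated only as a precursor protein, had the largest fall by fitted value, with 0.891, 4.11 and 10.2 normalized counts at L-V, against 37878, 32127 and 41459.5 at L-I, a log2 fold change of -12.92 (SE 1.08, BH-adjusted p = 2.26e-07, limma), which was -12.25 without L-V replicate 1 and -13.54 without L-V replicate 3. Apyrase 2 (Glyma16g04760.1), which splits nucleoside phosphates, had 3.56, 0 and 0.732 normalized counts at L-V, against 5851, 9247 and 6437 at L-I, a log2 fold change of -11.79 (SE 0.66, BH-adjusted p = 7.39e-09, limma), which was -12.38 without L-V replicate 1. In each of these falls every L-V library lay far below every L-I library.

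The groups changed at different stages. Of the 38 called transcripts for lipid metabolic process, 37 had passed the midpoint of their change by L-II, as had all 14 of polygalacturonase and 8 of 8 of sulfate assimilation. Of 24 secondary wall transcripts, 18 reached it at L-III and 6 at L-II. Photosynthesis transcripts passed it at L-II in 16 cases, at L-III in 48, at L-IV in 153 and at L-V in 12, and light harvesting had 41 of 47 at L-IV. The median difference of photosynthesis transcripts from L-I on the log2 scale was, over the stages L-II to L-V in order, -0.61, -1.08, -1.80 and -2.57. One library stood apart here, since photosynthesis and light harvesting took 10.5, 8.71 and 2.85% of the normalized counts of the 3 L-II libraries. Several rising groups had a higher median at L-IV than at L-V. The median for WRKY was 3.62 at L-IV and 3.11 at L-V, that for response to chitin 2.78 and 2.08, and that for defense 3.89 and 3.60, while UDP-glycosyltransferases were at 5.29 and 5.78. Between L-IV and L-V themselves limma called 4 of 50940 transcripts as higher and 21 as lower at L-V (0.0491%), and the medians of the lists were not tested. Among single genes, the nitrate transporter Glyma18g16490.1 had stage means of 10.5, 38.4, 375, 1307 and 4466 normalized counts over L-I to L-V, and the proteinase Glyma15g19580.1 of 121, 997, 1576, 7243 and 9775. MLP-like protein 34 (Glyma09g15450.1), of the major latex protein family, was higher from L-II on, with stage means of 478, 8022, 12582, 14886 and 9543.

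**Figure D4:**
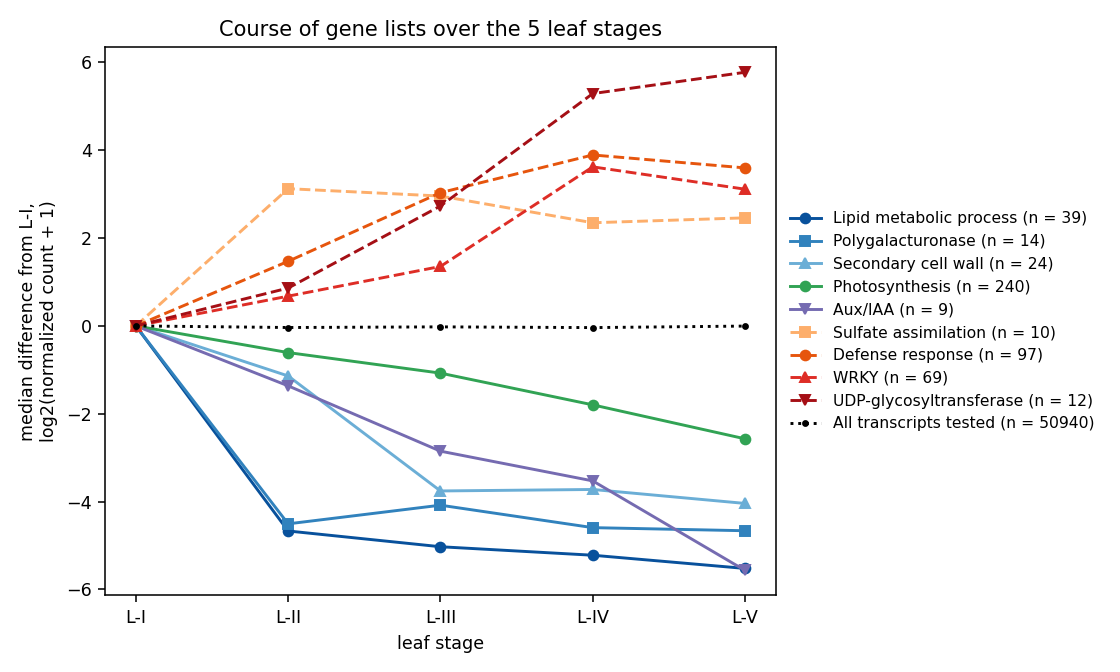
Lines give, for 9 gene lists and all transcripts tested, the median over transcripts of the difference from L-I in mean log2(normalized count + 1) at each leaf stage. Lipid and polygalacturonase transcripts are below -4 by L-II, photosynthesis reaches -2.57 only at L-V, and all transcripts stay near 0.

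How a gene was annotated with transcript models bore on what could be counted, since reads in exons shared by several models were discarded. Among chosen genes with a single model, 12.3% of 27790 transcripts rose and 24.8% fell. In genes with 2 or more models, 11.7% of 21997 rose and 12.1% fell. The levels differed as well, with a median of 34.7 normalized counts for single-model genes and 9.07 for the others, and the part of level in the count of calls was not tested. For genes such as glutamine synthetase 2, pheophytinase and asparagine synthase 1, the values above are those of single models and not of the gene.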

How the data were processed

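The libraries were made from leaf RNA, and the authors aligned paired reads to the Gmax_189 transcript models with Bowtie, allowing 1 mismatch, and kept reads that matched a single transcript. The leaf values that the authors deposited are log2 values from the variance-stabilizing transformation of DESeq, used by the authors after scaling to library size. They were converted back to normalized counts and, through the step that 1 read makes in each library, to reads, and every value came out whole within 0.05 of a read. Recovered totals were 1852184 to 5507841 reads a library at L-V and L-I, which limits precision for low transcripts.

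log2(normalized count + 1) was fitted with limma 3.58.1 in R 4.3.3 (an intensity trend, all 15 leaf libraries, contrast L-V minus L-I) with Benjamini-Hochberg adjustment over 50940 transcripts. Such fold changes understate those of low transcripts. The script was tested on simulated data. Transcripts are named by a rule: the 10 largest rises and falls, the 10 most abundant of each, and up to 2 per direction and list by size of change (all of short lists). Others were chosen after their values were seen. Of those named by the rule, the ones chosen by size or level also had to have no overlap between the stages. The transcripts and lists were chosen with earlier results of these data known. Annotation came from the tables of the study, and 0 identifiers matched RefSeq, so no sequence or coordinate is given. The replicates were leaves of different plants. Replicate numbers did not pair the libraries. Alternatives were the pseudocount, filter, scaling, measure, threshold, block, unit and left-out libraries.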

Additional observations from a re-analysis of the deposited data

How the results depend on the processing

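The counts of calls depended most on the threshold and on low transcripts. With a pseudocount of 5, 10231 transcripts were called (3740 higher and 6491 lower at L-V). With a mean of at least 10 normalized counts, 10255 were called and 6205 of them were lower. When limma tested against a log2 fold change of 1.5 (treat), 5975 were called, 1821 higher and 4154 lower, and the lists held 717 calls. By treat, 64 photosynthesis transcripts fell, and 55 defense, 77 kinase, 26 chitin, 31 WRKY and 24 NAC transcripts rose, while 12 NAC transcripts fell. NAC falls numbered 10 with the pseudocount of 5 and 5 with the mean of at least 10, which left 15 secondary wall falls.

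Calls at the midpoint by L-II numbered 7844 in the analysis reported, against 5172, 4747 and 3131 with the pseudocount of 5, the mean of at least 10 and treat. Those that rose were 1341, 1779 and 739, and those that fell were 2968 with the mean of at least 10 and 2392 with treat. Genes with several models had 2482, 2626 and 1309 calls under these 3 settings, and single-model genes 4666 with treat. A rule that asks for a value in all 6 libraries would choose 35587 transcripts.

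Leaving out 1 library gave 13856 to 16136 calls, 5031 to 6523 higher and 8732 to 9735 lower. Scaling by total reads moved the median of all transcripts to 0.25 on the log2 scale and gave 7601 higher and 8667 lower. Replicate numbers did not pair the libraries (correlations of deviations -0.038, -0.0088 and -0.0072), and with the replicate number as a block 5983 were higher and 9708 lower. Of 191 named and called transcripts, 157 kept their call in every alternative run and 0 reversed. Depth, lowest in L-I replicate 1, limits statements on transcripts with few reads, and summing reads over the models of a gene gave 4576 genes higher and 8716 lower.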
